A study of Homo sapiens with 18 samples.

Results

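Cells of the H1 line, an established human pluripotent stem cell line, were turned into neural ectoderm of an anterior or a posterior kind and then kept in a forebrain, a midbrain or a hindbrain medium, and 29 genes stood high after the midbrain medium at a like level in both origins. They came from the 29648 entries of the deposited expression table that carry a gene symbol. Expression is given as TPM, a transcript count scaled for transcript length and library size, and compared as log2(TPM + 1). A gene was taken when its mean log2(TPM + 1) after the midbrain medium was at least 1 above the day-2 cells and above the forebrain and hindbrain medium cells of the same origin, in both origins. The midbrain medium cells of both origins also had to differ by less than 1 and to reach a mean of 5 TPM. The members were therefore chosen on measured values. The 6 differences in the rule, and the likeness of the midbrain medium cells of both origins, are described below with no test.

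Of these genes, 6 are on a list of 20 WNT target and feedback genes used below, namely the feedback inhibitors NKD1, NOTUM, AXIN2 and ZNRF3 and the nuclear factors SP5 and LEF1. The receptor FZD10 is on a list of WNT ligands, receptors and antagonists. TRABD2B, which is known to inactivate WNT ligands, is on neither list, and no enrichment was tested. The others are the transcription regulators SP6, DACH1, LDB2, ZNF385C, HES6 and HEY2, the secreted and matrix genes EGFLAM, CCDC80, NDNF, HMCN1 and ADAMTS19, the enzymes ODC1 and CYP1B1, the surface proteins ADORA1, SCARB1, CD74 and TMEM132C, and CDC42EP5, SHANK1, PTPDC1 and FAM222A. In the canonical WNT pathway, a WNT ligand bound to a frizzled receptor and an LRP co-receptor stabilises beta-catenin, which enters the nucleus and acts with TCF/LEF factors on target genes. Many targets are inhibitors of the pathway itself, so their transcripts are widely used as a readout of it. In the early neural plate, WNT signals promote caudal fates, and WNT and FGF signals from the isthmus, the boundary of midbrain and hindbrain, pattern both sides of it.

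The series held 9 groups of 2 libraries, all wild-type H1 cells, labelled as replicates 1 and 2. Nothing in the sources used here says that these came from separate cultures, so p-values measure the spread between these libraries, which may be technical. The day-0 group was undifferentiated (hPSC). All other cells passed on day 1 through a definitive ectoderm medium with A8301, an inhibitor of TGF-beta receptors, trametinib, a MEK inhibitor, C59, which blocks release of WNT ligands, and LDN193189, an inhibitor of BMP receptors. On day 2, anterior neural ectoderm (aNE) had A8301, LDN193189 and C59, and posterior neural ectoderm (pNE) had A8301, LDN193189, the retinoic acid receptor agonist TTNPB, FGF2 and XAV939, a tankyrase inhibitor that lowers beta-catenin signalling. Both also had thiazovivin. By day 4 each origin had been kept in the forebrain medium (aNE_T and pNE_T), which held XAV939, LDN193189 and FGF2 on day 3, the midbrain medium (aNE_M and pNE_M) or the hindbrain medium (aNE_H and pNE_H). What the midbrain and hindbrain media held is not given in the sources used here. Cells of aNE origin for day 4 were plated at 75000 per cm2 and cells of pNE origin at 150000 per cm2, so that origin and plating density cannot be told apart at day 4. Cells collected on day 2 were plated at 37500 per cm2 in both origins. From day 2 to day 4, medium, day and plating density therefore changed together and cannot be told apart.

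The number of reads behind a value is unknown, since TPM values carry no depth. Between 13686 and 14679 genes reached 1 TPM in a library. Across the 17033 tested genes, taken as a description since genes are not independent, Pearson's r was 0.982 to 0.987 between the libraries of a group and 0.879 to 0.968 between libraries of different groups. Together the 29 genes took 0.405% and 0.406% of all TPM in the aNE_M libraries and 0.332% and 0.342% in the pNE_M libraries, against 0.0520% to 0.0981% in the other 14 libraries. In such bulk samples, fewer cells of a type and less RNA per cell cannot be told apart.

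Sequence before the start site was available for some of the members, and 3 are printed to show what the promoters of these genes look like. Of the 29 genes, 16 had an entry in the RefSeq promoter table (GRCh38.p14), which runs from 250 bases before to 50 bases after 1 start site per gene. That start lay within 500 bases of the 5′ end of the gene in GENCODE v29 for 10 of them. For ADORA1, CCDC80, HES6, HEY2, LEF1 and TMEM132C it lay further inside the gene, by 2655 bases for LEF1 and 37072 for ADORA1, which is an internal start by that annotation. The 3 printed starts lie within 14 bases of the GENCODE end. NKD1, NOTUM, AXIN2, SP6, FZD10, LDB2, NDNF, CYP1B1, SCARB1, CDC42EP5, HMCN1, ZNRF3 and SHANK1 had none. The 4 words CTTTGAT and CTTTGAA, together with CTTTGTT and CTTTGTA, which spell the core that TCF/LEF proteins are known to bind, were searched on both strands, and no match in these promoters overlapped another. The 250 bases before the start of SP5 (chr2:170715087-170715336, plus strand), of DACH1 (chr13:71867205-71867454, minus strand) and of ZNF385C (chr17:42098474-42098723, minus strand) read as follows, 5′ to 3′ on the gene's strand, with the words in capitals.
SP5: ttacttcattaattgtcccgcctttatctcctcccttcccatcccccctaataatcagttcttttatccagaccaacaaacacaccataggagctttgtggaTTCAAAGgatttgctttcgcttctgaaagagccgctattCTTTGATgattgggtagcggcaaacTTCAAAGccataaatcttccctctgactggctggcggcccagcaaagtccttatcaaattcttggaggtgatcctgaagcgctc
DACH1: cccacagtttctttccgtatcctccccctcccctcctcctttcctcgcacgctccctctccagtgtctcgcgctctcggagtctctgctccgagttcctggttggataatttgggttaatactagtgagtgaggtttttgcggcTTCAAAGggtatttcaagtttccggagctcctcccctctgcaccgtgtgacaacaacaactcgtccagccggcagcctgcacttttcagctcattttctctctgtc
ZNF385C: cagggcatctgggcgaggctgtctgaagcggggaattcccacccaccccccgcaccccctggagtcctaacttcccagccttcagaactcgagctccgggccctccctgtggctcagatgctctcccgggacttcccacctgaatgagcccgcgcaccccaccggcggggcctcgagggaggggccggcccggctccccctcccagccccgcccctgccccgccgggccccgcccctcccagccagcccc
SP5 held 3 words, which began 148, 109 and 84 bases before the start. DACH1 held 1 in the printed stretch and another 14 bases past the start, which is not printed. The stretch of ZNF385C, shown as one without a match, held none of these words. CD74 held 3 words, ADORA1 1 and FAM222A 1, so that 5 of the 16 entries, or 31.2%, had a word, and 4 of the 10 near the GENCODE end. The share was 13.9% of the 27305 promoters in the table and 11% of the 15354 promoters of genes in the deposited table. The median GC content was 69.0% for the 16 promoters and 63.0% for those 15354. A match is a description of the letters and not a binding site.

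**Figure D1:**
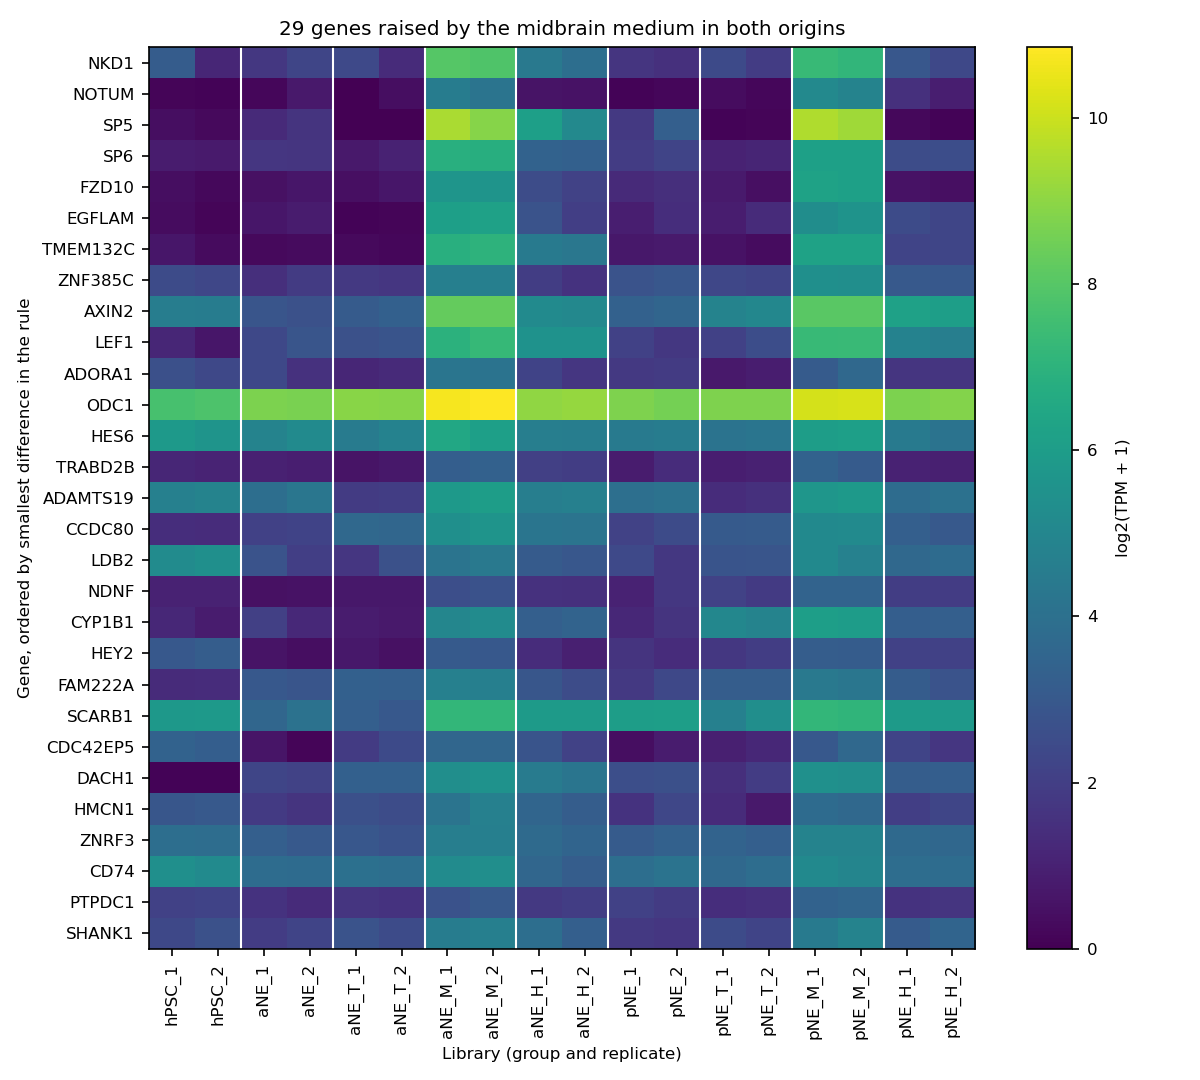
Heat map of log2(TPM + 1) for the 29 genes (vertical axis, ordered by the smallest of the 6 differences in the rule) in the 18 libraries (horizontal axis, 2 per group, white lines between groups). The 4 midbrain medium columns are the brightest of the neural columns for 28 of the 29 genes, and ODC1 is bright in every library.

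In 28 of the 29 genes each of the 4 midbrain medium libraries lay above all 12 other neural libraries. The exception was CYP1B1. Of all tested genes 2.15% met this, and the members were chosen on these libraries. In 25 genes the 4 libraries also lay above both hPSC libraries, as in 27.8% of all tested genes. The rule set no limit against hPSC but favours genes that are high in the midbrain medium, so nothing is read from this count. The smallest of the 6 differences ranged from 1.00 for SHANK1 to 3.79 for NKD1, with a median of 1.29. It was at least 3 in 6 genes, NKD1, NOTUM, SP5, SP6, FZD10 and EGFLAM, at least 2 also in TMEM132C and ZNF385C, and from 1 to under 2 in 21. It was the difference from the hindbrain medium of the same origin in most members, namely from aNE_H in 16 and from pNE_H in 7. Just inside the limit of 1 were CD74 (1.01), PTPDC1 (1.01) and SHANK1 (1.00). Just outside it were VCAN (0.99), TXNIP (0.93) and LMF1 (0.92).

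**Figure D2:**
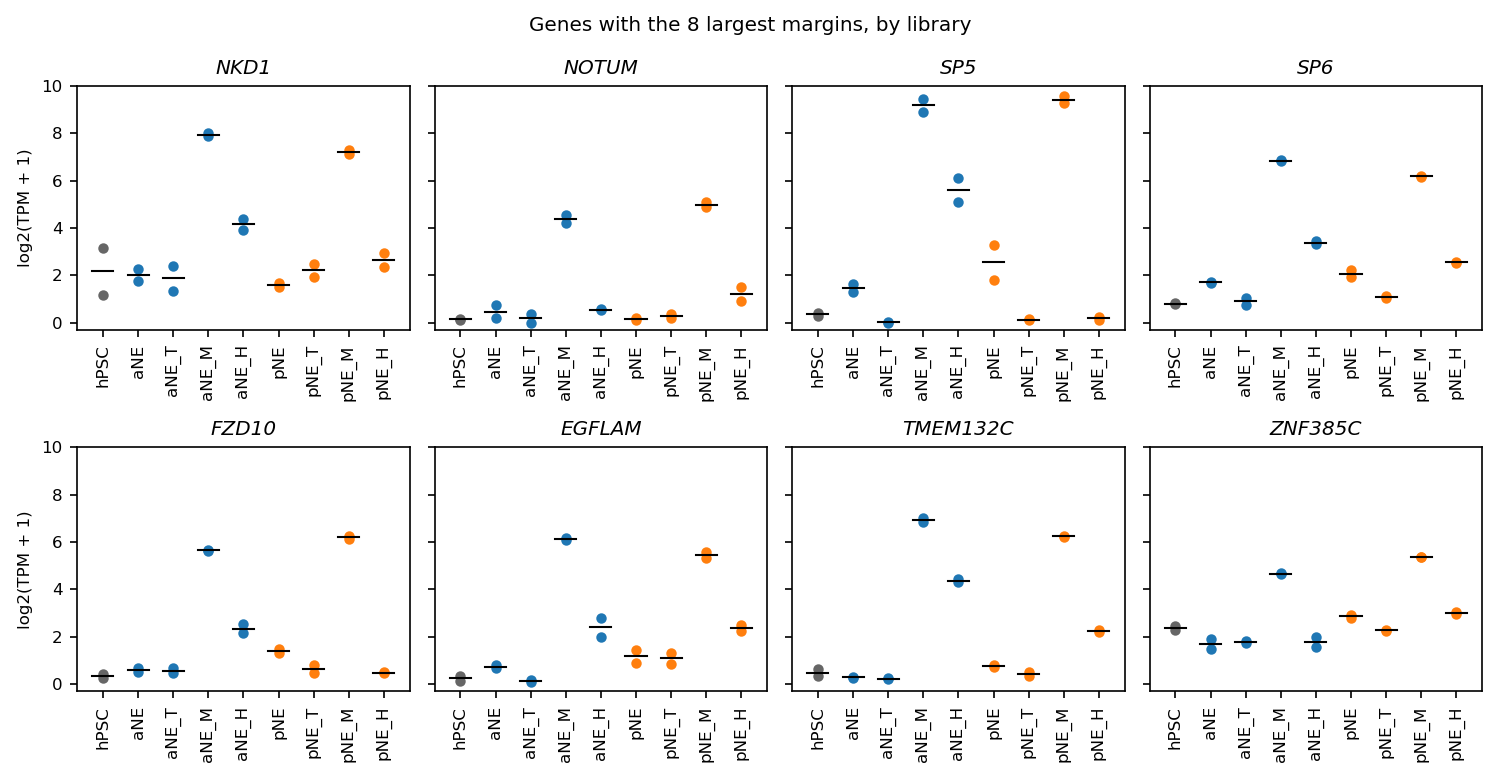
Each of 8 panels plots log2(TPM + 1) (vertical axis) in the 9 groups (horizontal axis) for one of the genes with the largest margins. Points are libraries, 2 per group, bars are their means, blue is aNE origin, orange pNE origin and grey hPSC. SP5 reaches 9.18 in aNE_M and 9.43 in pNE_M, is 5.61 in aNE_H and is near 0 in pNE_H.

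Among the feedback inhibitors of WNT signalling, NOTUM was under 2 TPM outside the midbrain medium and NKD1 was low in most groups, while AXIN2 and ZNRF3 were expressed in every library. NKD1, which binds dishevelled and dampens the signal, was at 256 and 235 TPM in the aNE_M libraries and 156 and 139 in the pNE_M libraries. It was at 20.04 and 14.1 in aNE_H, 6.7 and 4.09 in pNE_H, 2.43 and 3.8 in aNE, 2.2 and 1.8 in pNE, 4.28 and 1.55 in aNE_T, 4.49 and 2.86 in pNE_T and 7.91 and 1.25 in hPSC. The lowest midbrain medium library was thus far above the highest other library, and the aNE_H libraries came next. NOTUM, an enzyme that strips the lipid from WNT ligands, was at 22.4 and 17.2 TPM in aNE_M and 33.4 and 28.1 in pNE_M. Elsewhere it was at 1.81 and 0.9 in pNE_H, 0.467 and 0.451 in aNE_H, 0.128 and 0.675 in aNE, 0.0763 and 0.14 in pNE, 0 and 0.303 in aNE_T, 0.301 and 0.132 in pNE_T and 0.116 and 0.074 in hPSC. Outside the midbrain medium NOTUM passed 1 TPM only in 1 library, of pNE_H.

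AXIN2, a scaffold of the complex that degrades beta-catenin, was not near 0 anywhere. Its libraries read 315 and 312 TPM in aNE_M, 272 and 268 in pNE_M, 73.3 and 66.2 in pNE_H and 35.1 and 32.8 in aNE_H. The lower values were 28 and 31.1 in pNE_T, 23.4 and 22.5 in hPSC, 9.45 and 10.6 in pNE, 7.8 and 9.09 in aNE_T and 6.27 and 5.55 in aNE. The groups formed a graded order with no overlap of the midbrain medium libraries with any other. TRABD2B, a protease of the TIKI family that inactivates WNT ligands, was lower throughout, at 8.53 and 9.34 TPM in aNE_M and 9.81 and 7.71 in pNE_M. It was at 3.19 and 2.93 in aNE_H and at 1.05 and 0.948 in pNE_H, 1.01 and 0.871 in aNE, 0.754 and 1.62 in pNE, 0.471 and 0.63 in aNE_T, 0.891 and 0.97 in pNE_T and 1.23 and 1.11 in hPSC. Of the other groups only aNE_H reached 2 TPM. ZNRF3, a ubiquitin ligase that removes frizzled receptors from the cell surface, ranged from 23.9 to 28.2 TPM in the 4 midbrain medium libraries and from 5.74 to 14.3 in the other 14.

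SP5, a zinc-finger repressor induced by beta-catenin, had the widest range of the set. It was at 706 and 473 TPM in aNE_M and 756 and 625 in pNE_M. In the hindbrain medium it was at 68.6 and 33.3 in aNE_H but at 0.171 and 0.0905 in pNE_H. The remaining libraries gave 2.47 and 8.76 in pNE, 1.44 and 2.08 in aNE, 0.341 and 0.203 in hPSC, 0.0895 and 0.0967 in pNE_T and 0.0243 and 0 in aNE_T. Outside the midbrain medium only the aNE_H libraries passed 10 TPM. LEF1, a DNA-binding partner of beta-catenin, was at 125 and 152 TPM in aNE_M, 159 and 164 in pNE_M, 45.2 and 44.9 in aNE_H and 26.7 and 24 in pNE_H. It was at 4.14 and 6.31 in aNE, 5.39 and 6.09 in aNE_T, 3.32 and 4.95 in pNE_T, 3.34 and 2.37 in pNE and 1.22 and 0.594 in hPSC. Both hindbrain medium groups lay between the midbrain medium and the rest. FZD10, a frizzled receptor, was at 50.3 and 48.6 TPM in aNE_M and 76.3 and 70.1 in pNE_M. It was at 4.75 and 3.44 in aNE_H, 1.47 and 1.76 in pNE, 0.737 and 0.371 in pNE_T, 0.374 and 0.598 in aNE_T, 0.416 and 0.589 in aNE, 0.425 and 0.373 in pNE_H and 0.327 and 0.191 in hPSC. As with SP5, the aNE_H libraries were raised and the pNE_H libraries were not.

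The transcription regulators on neither WNT list varied more at the start. SP6, a relative of SP5, was at 115 and 112 TPM in aNE_M and 71.8 and 71.2 in pNE_M, then 9.79 and 9.01 in aNE_H and 4.79 and 4.98 in pNE_H. It was at 2.77 and 3.68 in pNE, 2.28 and 2.2 in aNE, 1.03 and 1.17 in pNE_T, 0.669 and 1.08 in aNE_T and 0.766 and 0.708 in hPSC. No library outside the midbrain medium reached 10 TPM. DACH1, a nuclear factor known from eye development, was at 39.6 and 45.5 TPM in aNE_M, 42.2 and 39.8 in pNE_M, 22 and 17.7 in aNE_H and 8.18 and 8.44 in pNE_H. It was at 9.07 and 8.94 in aNE_T, 5.18 and 5.3 in pNE, 3.77 and 3.44 in aNE, 1.74 and 2.79 in pNE_T and 0.0912 and 0.0735 in hPSC. DACH1 was thus under 0.1 TPM before differentiation and above 1 in all neural libraries. ZNF385C, a zinc-finger gene, was at 24.6 and 24.5 TPM in aNE_M and 41 and 40.6 in pNE_M. It was at 7.25 and 6.83 in pNE_H, 5.91 and 6.64 in pNE, 4.55 and 3.92 in hPSC, 3.92 and 3.74 in pNE_T, 2.5 and 2.3 in aNE_T, 2.95 and 1.99 in aNE_H and 1.75 and 2.72 in aNE. The pNE-derived libraries lay above the aNE-derived libraries within each stage for this gene.

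HES6, a bHLH factor that opposes HES1, was at 90.4 and 69.7 TPM in aNE_M and 64.7 and 68.6 in pNE_M. It was also high in hPSC, at 57.2 and 48.2, and stood at 28 and 35.3 in aNE, 21.8 and 27.3 in aNE_T, 24.3 and 23.4 in aNE_H, 20.5 and 22.6 in pNE, 21 and 16.3 in pNE_H and 16.7 and 17.5 in pNE_T. The hPSC libraries approached but did not reach the lowest midbrain medium library. HEY2, a repressor known as a Notch target, was at 7.3 and 6.98 TPM in aNE_M, 8.29 and 7.93 in pNE_M and 6.99 and 8.24 in hPSC, which overlapped. It was at 3.23 and 3.25 in pNE_H, 2.42 and 2.94 in pNE_T, 2.06 and 1.56 in pNE, 1.57 and 0.96 in aNE_H, 0.605 and 0.382 in aNE_T and 0.468 and 0.313 in aNE. LDB2, a cofactor of LIM-homeodomain proteins, was the only member with both hPSC libraries, at 36.4 and 40.9 TPM, above all midbrain medium libraries, which read 16.8 and 19.8 in aNE_M and 34.8 and 26.3 in pNE_M. Its other values were 11.7 and 13.1 in pNE_H, 7.62 and 6.63 in aNE_H, 6.09 and 6.24 in pNE_T, 2.33 and 5.39 in aNE_T, 5.79 and 3.01 in aNE and 4.22 and 2.42 in pNE. Its midbrain medium level was thus no higher than the level that these cells had before differentiation.

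Among the secreted and matrix genes EGFLAM had the largest margin, with 3.09 as the smallest of its 6 differences. EGFLAM, or pikachurin, a matrix ligand of dystroglycan, was at 68 and 72 TPM in aNE_M and 39.2 and 47.3 in pNE_M. It was at 5.85 and 3.03 in aNE_H, 4.66 and 3.75 in pNE_H, 0.876 and 1.69 in pNE, 0.814 and 1.49 in pNE_T, 0.586 and 0.76 in aNE, 0.274 and 0.0973 in hPSC and 0.064 and 0.115 in aNE_T. Both hindbrain medium groups lay above the remaining groups. CCDC80, an extracellular matrix protein, was at 41.1 and 47.4 TPM in aNE_M, 34.4 and 35.4 in pNE_M, 17.8 and 17.2 in aNE_H and 8.69 and 7.14 in pNE_H. It was at 11.5 and 11 in aNE_T, 7.51 and 7.6 in pNE_T, 3.41 and 4.6 in pNE, 3.24 and 3.54 in aNE and 1.68 and 1.61 in hPSC. All day-4 libraries of this gene were above all day-2 libraries. NDNF, a secreted factor of neural tissue, was at 9.92 and 9.88 TPM in pNE_M and 5.18 and 5.74 in aNE_M. It was at 3.44 and 2.55 in pNE_T, 2.96 and 2.83 in pNE_H, 1.96 and 1.87 in aNE_H, 1.08 and 2.42 in pNE, 1.05 and 1.05 in hPSC, 0.607 and 0.621 in aNE_T and 0.419 and 0.448 in aNE. NDNF was the least expressed of the 29 genes in aNE_M.

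ADAMTS19, a secreted metalloprotease, was at 58.2 and 65.3 TPM in aNE_M and 51.8 and 56.6 in pNE_M. It was at 25.4 and 28.1 in hPSC, 24.1 and 25.2 in aNE_H, 14.3 and 18.1 in aNE, 14.6 and 16.2 in pNE, 13.2 and 15.7 in pNE_H, 2.7 and 2.97 in aNE_T and 1.59 and 1.82 in pNE_T. The forebrain medium libraries were the lowest of all for it. HMCN1, hemicentin, a large matrix protein, ranged from 11.6 to 25.3 TPM in the midbrain medium libraries and from 0.692 to 10.8 in the other 14.

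ODC1 was by far the most abundant member. It encodes ornithine decarboxylase, the first and rate-limiting enzyme of polyamine synthesis. ODC1 was at 1662 and 1849 TPM in aNE_M and 1129.6 and 1186 in pNE_M. It was at 530.0 and 567 in aNE_H, 485 and 476 in aNE_T, 419 and 452 in pNE_H, 434 and 429 in pNE_T, 417 and 408 in aNE, 427 and 386 in pNE and 208 and 225 in hPSC. All other neural libraries stayed within 386 to 567 TPM. CYP1B1, a cytochrome P450 that oxidises oestrogens and retinoids, was at 66.9 and 63.5 TPM in pNE_M and 30.7 and 36.2 in aNE_M, but also at 31.1 and 27.8 in pNE_T. It was at 8.69 and 10.02 in aNE_H, 8.54 and 8.75 in pNE_H, 3.19 and 1.36 in aNE, 1.29 and 2.07 in pNE, 1.28 and 0.759 in hPSC and 0.798 and 0.689 in aNE_T. One pNE_T library lay above the lower aNE_M library, the single overlap of this kind in the set.

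The next 4 members act at the cell surface. SCARB1, the receptor for high-density lipoprotein, was at 145 and 142 TPM in aNE_M and 146 and 138 in pNE_M. It was at 65.3 and 66.3 in pNE, 59.2 and 58.6 in aNE_H, 59.9 and 56.7 in pNE_H, 54.8 and 56.2 in hPSC, 25.8 and 40.5 in pNE_T, 11.1 and 16.3 in aNE and 8.77 and 6.85 in aNE_T. The day-2 cells of posterior origin were already as high as either hindbrain medium group. TMEM132C, a transmembrane protein, was at 114 and 127 TPM in aNE_M, 75.4 and 74.3 in pNE_M, 20.6 and 18.7 in aNE_H and 3.64 and 3.85 in pNE_H. It was at 0.638 and 0.731 in pNE, 0.555 and 0.249 in hPSC, 0.435 and 0.28 in pNE_T, 0.194 and 0.241 in aNE and 0.203 and 0.15 in aNE_T. Only the midbrain and hindbrain medium libraries passed 1 TPM. ADORA1, the adenosine A1 receptor, was at 17.4 and 16.5 TPM in aNE_M and 7.77 and 11.8 in pNE_M. It was at 5.2 and 4.07 in hPSC, 4.07 and 1.88 in aNE, 3.53 and 2.33 in aNE_H, 2.51 and 2.68 in pNE, 2.19 and 2.21 in pNE_H, 1.23 and 1.45 in aNE_T and 0.687 and 0.805 in pNE_T. Its aNE_M libraries lay above its pNE_M libraries. CD74, the invariant chain of MHC class II, ranged from 29.6 to 40.4 TPM in the midbrain medium, from 36.0 to 41.4 in hPSC and from 8.33 to 16.6 in the other 12 neural libraries.

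CDC42EP5, an effector of the small GTPase CDC42, was at 11 and 10.8 TPM in aNE_M and 6.9 and 11.7 in pNE_M, which overlapped with 9.58 and 8.4 in hPSC. It was at 6.07 and 3.45 in aNE_H, 2.68 and 4.45 in aNE_T, 3.61 and 2.29 in pNE_H, 0.964 and 1.32 in pNE_T, 0.335 and 0.762 in pNE and 0.509 and 0.124 in aNE. Its day-2 libraries were the lowest in both origins. FAM222A was at 25.1 and 24.6 TPM in aNE_M and 19.7 and 18.2 in pNE_M. It was at 9.01 and 8.69 in aNE_T, 8.25 and 8.31 in pNE_T, 8.02 and 5.77 in pNE_H, 6.86 and 6.31 in aNE, 6.51 and 4.73 in aNE_H, 2.5 and 4.17 in pNE and 1.55 and 1.58 in hPSC. Unlike in most members, the forebrain medium libraries were above the hindbrain medium libraries. PTPDC1, a protein with a tyrosine phosphatase domain, ranged from 5.65 to 10.6 TPM in the midbrain medium and from 1.53 to 3.56 in the other 14 libraries. SHANK1, a scaffold of the postsynaptic density, ranged from 21.0 to 28.2 TPM in the midbrain medium and from 2.31 to 14.2 in the others.

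Whether the 29 genes already changed between day 0 and day 2 was tested with limma on log2(TPM + 1), a model fitted to all 18 libraries, with p-values adjusted by the Benjamini-Hochberg method over the 17033 genes that reached 1 TPM in 2 or more libraries. All 29 passed that filter. Calls needed both an adjusted p below 0.05 and a difference of 1 or more, up or down, on the log2 scale. The tests below use no midbrain medium library, but the day-2, forebrain and hindbrain libraries also set the members through the rule, so that each count is given beside the share of all tested genes called in the same comparison. The comparisons also share libraries with each other.

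From hPSC to aNE, 4 of the 29 genes rose and 7 fell, where 13.5% of all tested genes were called (7.36% higher and 6.19% lower). The median difference of the 29 was -0.45 on the log2 scale, against 0.06 for all genes. Among the 6 with the largest changes, DACH1 rose by 2.09 ± 0.15 (SE, adjusted p = 2.76e-07). The falls were -2.94 ± 0.30 for CDC42EP5, -2.92 ± 0.30 for LDB2, -2.63 ± 0.17 for HEY2, -1.97 ± 0.18 for SCARB1 and -1.80 ± 0.09 for AXIN2. Their adjusted p-values lay between 1.31e-08 for AXIN2 and 6.90e-06 for LDB2. From hPSC to pNE, 5 rose and 7 fell, where 12.9% of all tested genes were called (7.14% higher and 5.74% lower), and the median was 0.02 against 0.05 for all genes. After quantile normalization 3 rose and 7 fell. LDB2 fell to 4.22 and 2.42 TPM, a difference of -3.23 ± 0.30 (SE, adjusted p = 2.99e-06), and CDC42EP5, HEY2 and CD74 fell by 2.70, 1.62 and 1.28. DACH1 rose by 2.53 ± 0.15 (SE, adjusted p = 4.41e-08) and SP5 by 2.20 ± 0.40 (SE, adjusted p = 7.94e-04). The members thus had no common course on the way to neural ectoderm, and their medians were near or below that of all genes.

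Between the origins at day 2, 3 genes were higher in pNE than in aNE and none was lower, where 3.85% of all tested genes were called (2.37% higher and 1.48% lower). SCARB1 differed by 2.21 ± 0.18 (SE, adjusted p = 3.22e-06), and its pNE and aNE libraries did not overlap. ZNF385C differed by 1.18 ± 0.16 (SE, adjusted p = 2.55e-04) and HEY2 by 1.01 ± 0.17 (SE, adjusted p = 0.00155). The calls of ZNF385C and HEY2 lay close to the limit. The difference of ZNF385C was 0.97 without aNE replicate 1, and that of HEY2 was 0.93 without aNE replicate 2 and 0.88 without pNE replicate 1, and HEY2 had an adjusted p of 0.0837 in a fit of only the compared libraries. With a pseudocount of 0.1, 7 members were called.

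**Figure D3:**
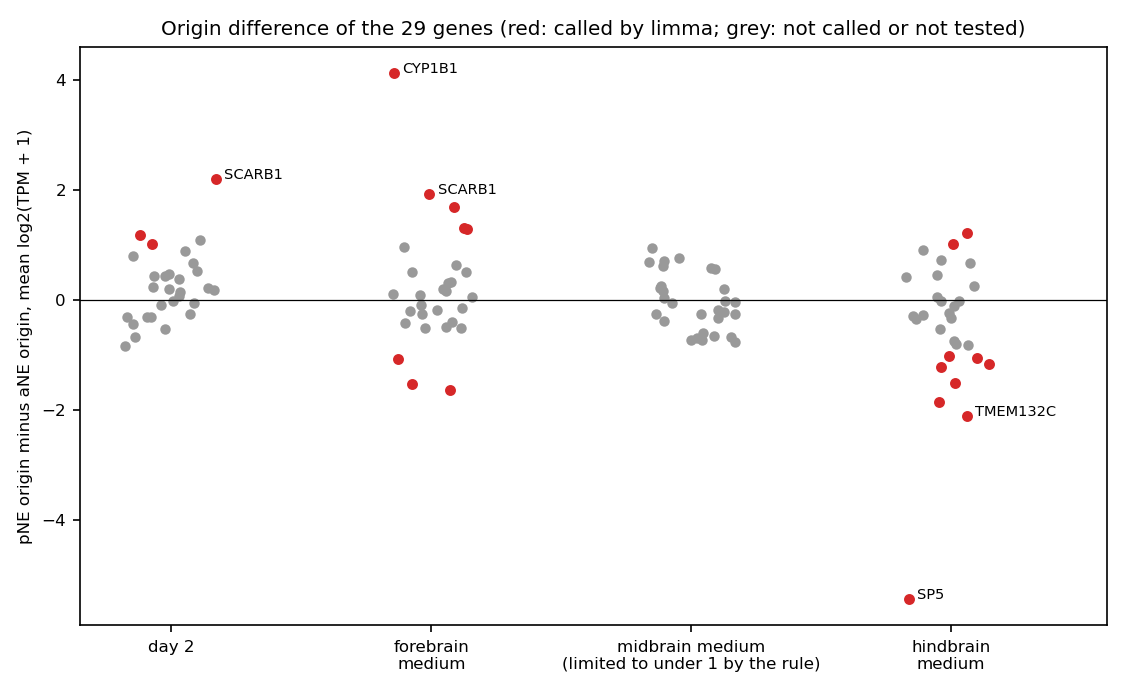
Difference between origins, pNE-derived minus aNE-derived cells in mean log2(TPM + 1) (vertical axis), for the 29 genes at day 2 and after each of the 3 media (horizontal axis, points spread sideways for legibility). Red points were called by limma, grey points were not called or, for the midbrain medium, not tested. The midbrain medium points stay within -0.76 and 0.95 because the rule limits them, and SP5 lies at -5.43 in the hindbrain medium.

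After the forebrain medium, 5 of the 29 genes were higher in pNE_T than in aNE_T and 3 were lower, where 7.77% of all tested genes were called (3.79% higher and 3.97% lower). The largest difference was that of CYP1B1, 4.12 ± 0.23 (SE, adjusted p = 3.16e-08). SCARB1 was 1.93 ± 0.18 (SE), AXIN2 1.70 ± 0.09 (SE) and HEY2 1.30 ± 0.17 (SE) higher in pNE_T on the log2 scale. DACH1 and HMCN1 were lower in pNE_T, with differences of -1.64 ± 0.15 (SE) and -1.53 ± 0.26 (SE). After the hindbrain medium, 2 genes were higher in pNE_H than in aNE_H and 8 were lower, where 6.83% of all tested genes were called (3.92% higher and 2.91% lower). SP5 had a difference of -5.43 ± 0.40 (SE, adjusted p = 5.02e-07), TMEM132C of -2.12 ± 0.14 (SE, adjusted p = 1.74e-07) and FZD10 of -1.85 ± 0.17 (SE, adjusted p = 5.04e-06). HMCN1 had a difference of -1.22 ± 0.26 (SE), and ZNF385C, which was higher in pNE_H, of 1.23 ± 0.16 (SE). The call of NKD1, -1.51 ± 0.50 (SE, adjusted p = 0.0491), was lost without any 1 of the 4 hindbrain medium libraries, with differences from -1.81 to -1.21. With all libraries kept it was also lost after median-ratio scaling (adjusted p = 0.0621) and quantile normalization (0.0672). The same held with a pseudocount of 0.1 (0.0883) and without a filter on low values (0.190). AXIN2 was the other gene that was higher in pNE_H, by 1.02 ± 0.09 (SE), and was named after its values were seen. In the midbrain medium itself, 12 members had a higher mean in pNE_M and 17 in aNE_M, with differences limited by the rule.

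From day 2 to the forebrain medium the set split. In the aNE origin 3 genes rose and 2 fell, where 9.03% of all tested genes were called (4.61% higher and 4.42% lower). CCDC80 rose by 1.48 ± 0.13 (SE), CDC42EP5 by 1.78 ± 0.30 (SE) and DACH1 by 1.12 ± 0.15 (SE), while ADAMTS19 fell by 2.15 ± 0.13 (SE) and SP5 by 1.44 ± 0.40 (SE). Adjusted p-values of these 5 ran from 5.74e-08 for ADAMTS19 to 0.0153 for SP5. The call of SP5 was lost, at adjusted p-values from 0.0612 to 0.0981, without aNE replicate 2 or either aNE_T library. With a pseudocount of 0.1, 4 rose and 6 fell. In the pNE origin 3 genes rose and 5 fell, where 10.2% of all tested genes were called (4.68% higher and 5.56% lower). With median-ratio scaling 3 rose and 3 fell, and after quantile normalization 3 rose and 2 fell. CYP1B1 rose by 3.52 ± 0.23 (SE, adjusted p = 1.43e-07), AXIN2 by 1.47 ± 0.09 (SE) and FAM222A by 1.12 ± 0.19 (SE). ADAMTS19 fell by 2.60 ± 0.13 (SE), SP5 by 2.41 ± 0.40 (SE) and ADORA1 by 1.04 ± 0.25 (SE). The difference of FAM222A was 0.84 without pNE replicate 1, and that of ADORA1 was -0.99 without pNE_T replicate 1.

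Part of the set was also higher in the hindbrain medium than at day 2, below the midbrain medium by the rule. From aNE to aNE_H, 17 of the 29 genes rose and none fell, where 10.1% of all tested genes were called (3.24% higher and 6.83% lower). The median of the 29 was 1.54, against -0.04 for all genes. SP5 rose by 4.16 ± 0.40 (SE, adjusted p = 5.03e-06), TMEM132C by 4.08 ± 0.14 (SE, adjusted p = 3.63e-10), LEF1 by 2.91 ± 0.21 (SE, adjusted p = 3.58e-07) and AXIN2 by 2.34 ± 0.09 (SE, adjusted p = 1.95e-09). DACH1 rose by 2.17 ± 0.15 (SE) and NKD1 by 2.14 ± 0.50 (SE). Without aNE replicate 1 NKD1 had an adjusted p of 0.0514. From pNE to pNE_H, 9 genes rose and SP5 alone fell, where 12.3% of all tested genes were called (4.47% higher and 7.8% lower). The median of the 29 was 0.55, against -0.08 for all genes. LEF1 rose by 2.78 ± 0.21 (SE, adjusted p = 3.49e-07) and AXIN2 by 2.68 ± 0.09 (SE, adjusted p = 5.29e-10). CYP1B1, LDB2 and SHANK1 rose by 1.86, 1.66 and 1.55, and SP5 fell by 2.37 ± 0.40 (SE, adjusted p = 4.50e-04).

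**Figure D4:**
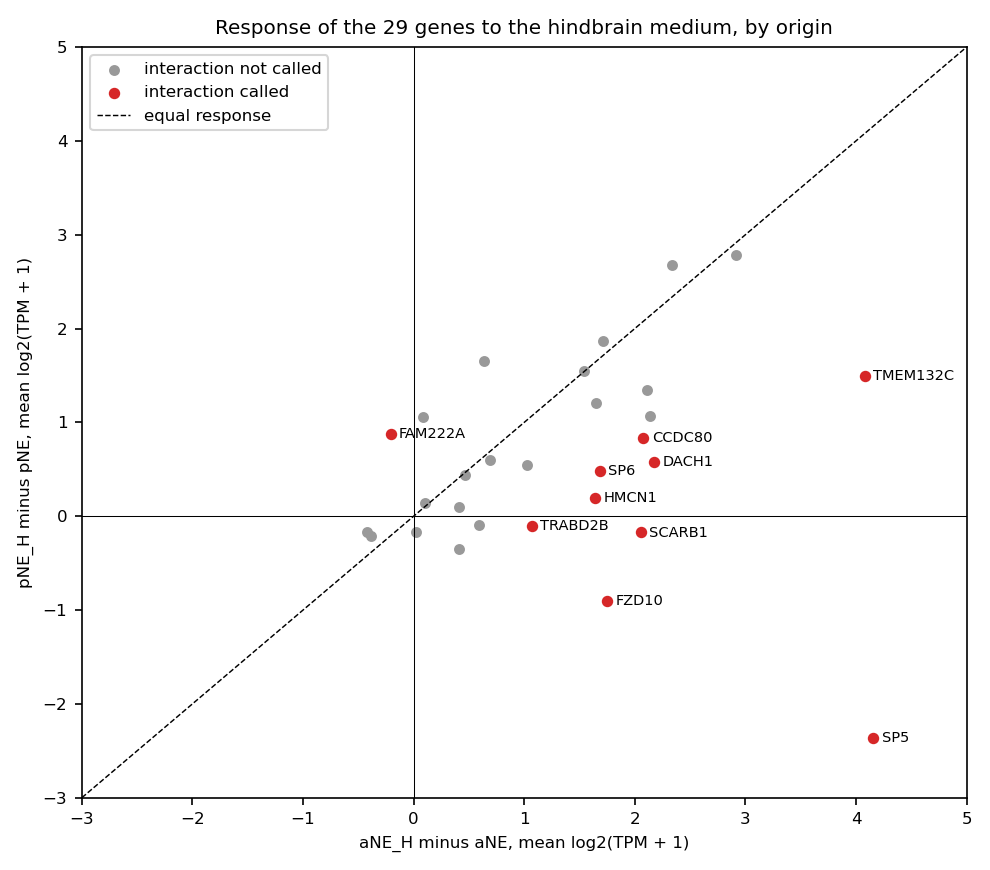
Change from day 2 to the hindbrain medium in mean log2(TPM + 1), in the aNE origin (horizontal axis) and in the pNE origin (vertical axis), 1 point per gene for the 29 genes. Red points differed between the origins by the limma interaction test, grey points did not pass it, and the dashed line marks equal change. SP5 lies at 4.16 and -2.37, and TMEM132C at 4.08 and 1.49.

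The difference between these responses was tested as an interaction, the change of the pNE origin minus the change of the aNE origin, which was added after the values were seen. For the hindbrain medium 10 of the 29 genes passed, 9 of them with a negative value. Of all tested genes 7.83% were called (3.91% higher and 3.92% lower). SP5 differed by -6.52 ± 0.57 (SE, adjusted p = 4.47e-06), FZD10 by -2.65 ± 0.25 (SE), TMEM132C by -2.59 ± 0.20 (SE), SCARB1 by -2.22 ± 0.26 (SE) and DACH1 by -1.60 ± 0.21 (SE). The interaction of LEF1 was -0.13 ± 0.30 (SE, adjusted p = 0.838) and that of AXIN2 0.34 ± 0.13 (SE, adjusted p = 0.113), and both were named here after their values were seen. For the forebrain medium 4 genes passed, CYP1B1 and AXIN2 with positive values and DACH1 and HMCN1 with negative ones. Of all tested genes 7.14% were called (3.17% higher and 3.97% lower). Mean log2(TPM + 1) of DACH1 went from 2.20 in aNE to 3.32 in aNE_T, but from 2.64 in pNE to 1.69 in pNE_T. That of HMCN1 went from 1.74 to 2.58, but from 1.96 to 1.05. The interaction of CYP1B1 was 4.37 ± 0.33 (SE, adjusted p = 1.29e-06). The call of AXIN2 lay at the limit, with a difference of 1.02 that was 0.92 to 0.95 without aNE replicate 1, aNE_T replicate 1, pNE replicate 1 or pNE_T replicate 2. Plating density changed with origin in these comparisons too.

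The members were then set beside lists of WNT pathway genes, which hold only some of them. A list of 20 WNT target and feedback genes held 6 members, NKD1, NOTUM, AXIN2, ZNRF3, SP5 and LEF1, and 14 other genes, and was compared between the midbrain and the forebrain medium. In the aNE origin 7 of the 14 other genes rose and none fell, where 10.1% of all tested genes were called (3.5% higher and 6.55% lower). In the pNE origin 8 rose and 1 fell, where 8.6% of all tested genes were called (3.31% higher and 5.29% lower). The median difference of the 14 was 1.09 in the aNE origin and 1.38 in the pNE origin, and that of all genes was within 0.1 of 0. On day 3 the forebrain medium held XAV939, which lowers beta-catenin signalling. Against the hindbrain medium, 5 of the 14 were higher and 1 was lower in aNE_M, with a median of 0.63. In pNE_M 8 were higher than in pNE_H and 1 was lower, with a median of 1.09. The median of all genes in these comparisons was 0.01 and 0.005. DKK1, a secreted inhibitor of LRP co-receptors, was at 423 ± 50.9 TPM (mean ± SD, n = 2) in aNE_M, at 94.7 ± 4.12 in pNE_M, listed at 0 in both aNE_T libraries and at 0.056 ± 0.0792 in pNE_T. APCDD1, a membrane inhibitor of the pathway, was at 355 ± 25.8 TPM in aNE_M and 39.8 ± 2.43 in pNE_M, against 2.12 ± 1.05 in aNE_T and 1.5 ± 0.326 in pNE_T. Both genes rose in both origins but to unequal levels, which kept them out of the 29.

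Among the other targets, DKK4 passed the test in the aNE origin, CDX1 in the pNE origin and RNF43 in both. DKK4, another DKK inhibitor, was at 14.1 ± 4.08 TPM in aNE_M and 0.172 ± 0.102 in pNE_M. RNF43, a partner of ZNRF3 in removing frizzled receptors, rose to 2.77 ± 0.228 TPM in aNE_M and 14.4 ± 1.19 in pNE_M. CDX1, a caudal homeobox gene, was at 113 ± 19.96 TPM in pNE_M and 0.783 ± 0.15 in aNE_M. BAMBI, an inhibitor of TGF-beta family receptors and the gene that fell in the pNE origin, was at 18 ± 0.292 TPM in pNE_M, 71.2 ± 3.51 in pNE_T, 5.1 ± 0.252 in aNE_M and 0.947 ± 0.0353 in aNE_T, and was named after its values were seen. Its difference between midbrain and forebrain medium was 1.65 ± 0.13 (SE) in the aNE origin and -1.92 ± 0.13 (SE) in the pNE origin. Whether the difference itself differed between the origins was not tested for these genes.

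A list of 28 WNT ligands, receptors and antagonists held 1 member, FZD10, and behaved otherwise. Of its 25 other tested genes, 3 rose and 9 fell from the forebrain to the midbrain medium in the aNE origin. In the pNE origin 2 rose and 5 fell. Of all tested genes 10.1% were called in the aNE origin (3.5% higher and 6.55% lower). The share was 8.6% in the pNE origin (3.31% higher and 5.29% lower). The 5 that fell in the pNE origin, named after their values were seen, were the receptors FZD5 and FZD8, the WNT-binding antagonists SFRP1 and SFRP2, and RSPO3, a ligand that strengthens the signal, and each of them also fell in the aNE origin. FZD5 went from 399.6 ± 12.3 TPM in aNE_T to 2 ± 0.0713 in aNE_M, and from 15.8 ± 3 in pNE_T to 1.78 ± 0.0739 in pNE_M. SFRP1 went from 408 ± 3.51 TPM in aNE_T to 71.6 ± 2.63 in aNE_M, and from 352 ± 25.7 in pNE_T to 45.4 ± 1.38 in pNE_M. WNT4 was among the risers in both origins, with 45.2 ± 0.0284 TPM in aNE_M and 1.25 ± 0.539 in pNE_M.

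**Figure D5:**
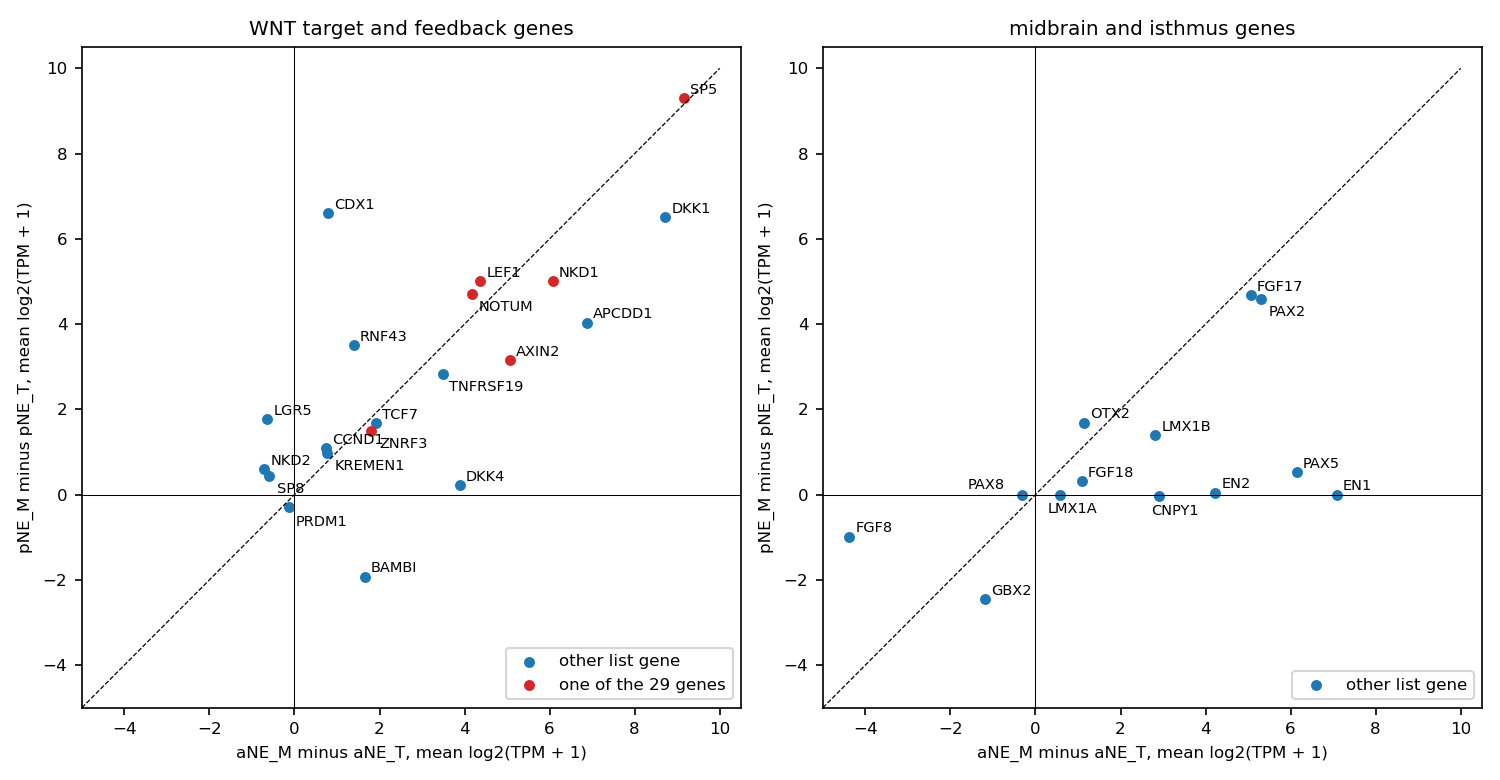
Midbrain minus forebrain medium in mean log2(TPM + 1), in the aNE origin (horizontal axis) and the pNE origin (vertical axis), for the tested genes of the WNT target and feedback list (left) and of the midbrain and isthmus list (right). Red points are members, blue points other genes, and the dashed line marks equal differences. SP5 lies near the line, at 9.16 and 9.30, and EN1 lies on the zero line of the pNE origin, at 7.08 and 0.

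The label of the medium was checked against a list of 16 midbrain and isthmus genes, of which 13 were tested and none was a member. In the aNE origin 9 rose and 2, FGF8 and GBX2, fell from the forebrain to the midbrain medium. Of all tested genes 10.1% were called there. Without either aNE_M library 7 of the list were called. In both cases EN1, EN2 and CNPY1 then reached 1 TPM in fewer than 2 libraries and were not tested. FGF18 also lost its call without aNE_M replicate 1, at a difference of 0.96, and GBX2 without aNE_M replicate 2, at -0.85. In the pNE origin 4 rose, PAX2, FGF17, LMX1B and OTX2, and GBX2 fell, where 8.6% of all tested genes were called. EN1, a homeobox gene of the midbrain and first rhombomere, was at 135 ± 9.45 TPM in aNE_M and listed at 0 in both pNE_M libraries. EN2 was at 17.7 ± 1.56 TPM in aNE_M and 0.0322 ± 0.0117 in pNE_M, and PAX5, another isthmus gene, at 71.7 ± 4.3 and 0.473 ± 0.39. PAX2 was at 101 ± 0.431 TPM in aNE_M and 33.1 ± 0.0634 in pNE_M. OTX2, which marks forebrain and midbrain, was at 149 ± 18.1 TPM in aNE_M and 4.84 ± 0.764 in pNE_M. The 29 genes, whose likeness the rule sets, were thus measured in groups that stood apart in EN1, EN2 and PAX5.

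Markers of other cell types also differed between the midbrain and the forebrain medium. Of all tested genes, 10.1% were called in this comparison in the aNE origin and 8.6% in the pNE origin. Of 14 mesoderm and caudal progenitor markers, 11 were tested. In the aNE origin 6 rose and 1 fell from the forebrain to the midbrain medium, and in the pNE origin 6 rose. Their summed level was 134 to 152 TPM in aNE_M and 414 to 443 in pNE_M, against 49.9 to 59.3 in aNE_T and 25.05 to 29.04 in pNE_T, 8.81 to 10.4 in aNE_H and 21.4 to 24.7 in pNE_H. The sum in pNE_M was carried by CDX2 at 249 ± 3.67 TPM and CDX1, and that in aNE_M by MIXL1 at 86.5 ± 12, all named after their values were seen. TBXT, a defining gene of early mesoderm, was at 3.36 ± 0.91 TPM in aNE_M and 1.57 ± 0.513 in pNE_M, and MSGN1 at 0.468 ± 0.302 and 0.206 ± 0.292. Of 12 pan-neural genes, 2 rose and 7 fell in the aNE origin and 1 rose and 4 fell in the pNE origin, with a summed level of 608 to 656 TPM in aNE_M and 523 to 565 in pNE_M, against 1688 to 1735 in aNE_T and 1197 to 1210 in pNE_T. The pan-neural sum was as low in the hindbrain medium, at 612 to 682 TPM in aNE_H and 550 to 566 in pNE_H, ranges that overlap those of the midbrain medium. Whether other cell types were present, and what part they had in the levels of the 29 genes, was not tested.

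Other lists were compared in the same way. Between the midbrain and the forebrain medium, 10.1% of all tested genes were called in the aNE origin (3.5% higher and 6.55% lower). In the pNE origin 8.6% were called (3.31% higher and 5.29% lower). Nothing is read from list counts near these shares. From the forebrain to the midbrain medium, 4 of 13 tested dorsal neural tube genes rose and 1 fell in the aNE origin, and 8 rose and 1 fell in the pNE origin. Of 12 neural crest markers, 2 rose and 2 fell in the aNE origin and 5 rose and 2 fell in the pNE origin. Of 9 tested neuron markers, 4 rose in the aNE origin and 2 in the pNE origin. FGF-ERK response genes gave 0 rising and 2 falling of 15 in the aNE origin and 3 rising and 1 falling in the pNE origin. The forebrain medium itself held FGF2 on day 3. Against day 2, where day and plating density also changed, 9 of the 15 were higher and 2 lower in aNE_M. In pNE_M 3 were higher than in pNE and 2 lower. The summed FGF-ERK level was 213 to 228 TPM in aNE, 1249 in aNE_T and 996 to 1016 in aNE_M. Retinoic acid response genes gave 1 rising of 7 in the aNE origin, and 1 rising and 4 falling in the pNE origin. Their summed level was 150 to 156 TPM in aNE_M and 693 to 789 in pNE_M. It was lower in the forebrain medium, at 17.1 to 18.2 TPM in aNE_T and 322 to 358 in pNE_T. The median difference of the 7 genes was -0.13 in the aNE origin and -1.71 in the pNE origin. A sum follows the most abundant genes, so it does not show a rise of the list. Placode and surface ectoderm markers gave 3 falling of 11 in each origin. Their summed level was nonetheless higher in the midbrain medium, at 962 to 1016 TPM in aNE_M against 673 to 688 in aNE_T. It was 2083 to 2141 TPM in pNE_M against 1251 to 1375 in pNE_T. The median difference of these 11 genes was -0.35 in the aNE origin and -0.52 in the pNE origin. Endoderm markers gave 1 falling of 8 in the aNE origin, and 1 rising and 3 falling in the pNE origin. Pluripotency genes gave 1 and 2 rising of 8 in the aNE and pNE origin, and stress and p53 response genes 1 rising and 2 falling of 12 in the aNE origin, and 1 rising and 4 falling in the pNE origin.

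By GENCODE v29 on GRCh38 all 29 genes are protein coding and lie on 13 chromosomes. On chromosome 17 lie 4 of them, NOTUM, SP6, ZNF385C and AXIN2. The closest pair was TMEM132C and FZD10 on chromosome 12, with 1454544 bases between them, so the members form no tight cluster. For 17 of the 29 an annotated gene overlaps on the other strand, among them LEF1-AS1 for LEF1 and CYP1B1-AS1 for CYP1B1. NKIRAS2, which overlaps ZNF385C in this way, ranged from 32.2 to 54.3 TPM over all libraries and from 42.3 to 50.4 in the midbrain medium. Whether the quantification used the strand is not given in the sources used here, so reads of such pairs may not have been told apart.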

How the data were processed

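The authors deposited 1 table of TPM values for 37550 genes in 18 poly-A RNA libraries. The submitters' processing notes name kallisto, Trim Galore, FastQC, bcl2fastq, deepTools and the build hg38, with no versions. Samples were grouped by the titles in the labels, every column was used, and depth is unknown. The 7902 entries without a symbol could not be members but stayed in the fits. Members, gene lists and named genes were chosen with earlier results of these data known.

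Values were analysed as log2(TPM + 1), so differences of low genes are understated. The limma package (version 3.58.1, R 4.3.3) fitted 1 mean per group with a variance trend to the 17033 genes that reached 1 TPM in 2 or more libraries, with 9 residual degrees of freedom. Tests were two-sided with Benjamini-Hochberg adjustment over all of these genes, and the script was tested on simulated data. The members were ranked by the smallest of their 6 differences, the first 24 were given with every value and the others by range, and up to 6 called members were named per comparison. Of the WNT target and the midbrain and isthmus lists, up to 8 genes per comparison were named by size. The alternatives were a pseudocount of 0.1, other filters on low values, quantile normalization, median-ratio scaling, a fit of only the compared libraries, a replicate block, a call by adjusted p alone, other limits in the rule, and leaving out each library.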

Additional observations from a re-analysis of the deposited data

Results flagged for a closer look

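For these genes the response of cells to the same medium, from day 2 to day 4, differed between the origins by the limma interaction test on log2(TPM + 1). The test was added after the values were seen, 2 media were tested, and p-values were adjusted over all tested genes. Each value is the change in the pNE origin minus that in the aNE origin, and plating density changed with origin at day 4.

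For the forebrain medium the interaction was 4.37 ± 0.33 (SE, adjusted p = 1.29e-06) for CYP1B1, which rose from pNE to pNE_T. From aNE to aNE_T CYP1B1 had a difference of -0.85 ± 0.23 (SE, adjusted p = 0.0136 by limma), which missed a call only by the size limit. The interaction was -2.07 ± 0.21 (SE, adjusted p = 2.25e-05) for DACH1 and -1.75 ± 0.37 (SE, adjusted p = 0.00664) for HMCN1. It was 1.02 ± 0.13 (SE, adjusted p = 0.000182) for AXIN2, and 0.92 to 0.95 without any 1 of the libraries aNE replicate 1, aNE_T replicate 1, pNE replicate 1 and pNE_T replicate 2, which is below the limit of 1.

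For the hindbrain medium the interaction was -6.52 ± 0.57 (SE, adjusted p = 4.47e-06) for SP5, -2.65 ± 0.25 (SE, adjusted p = 8.20e-06) for FZD10 and -2.59 ± 0.20 (SE, adjusted p = 1.45e-06) for TMEM132C. In SP5 both aNE_H libraries lay above both aNE libraries and both pNE_H libraries below both pNE libraries. It was -2.22 ± 0.26 (SE, adjusted p = 6.27e-05) for SCARB1, -1.60 ± 0.21 (SE, adjusted p = 0.000204) for DACH1, -1.24 ± 0.19 (SE, adjusted p = 0.000476) for CCDC80 and -1.19 ± 0.19 (SE, adjusted p = 0.000911) for SP6. The weakest calls were those of HMCN1, -1.44 ± 0.37 (SE, adjusted p = 0.018), TRABD2B, -1.17 ± 0.27 (SE, adjusted p = 0.00989), and FAM222A, 1.09 ± 0.27 (SE, adjusted p = 0.0135). HMCN1 had adjusted p-values of 0.0659 to 0.0691 without aNE replicate 2, aNE_H replicate 1, pNE replicate 2 or pNE_H replicate 1. FAM222A lost its call without aNE replicate 1 (adjusted p = 0.0504), and without aNE_H replicate 2, pNE replicate 1 or pNE_H replicate 1 its difference was 0.80 to 0.89. TRABD2B had a difference of -0.88 without pNE replicate 2. A fit of only the compared libraries gave adjusted p-values of 0.0717 for TRABD2B, 0.0926 for FAM222A and 0.0503 for HMCN1, and without a filter on low values HMCN1 had 0.0682.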

How the results depend on the processing

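The number of members was 11 with a margin of 1.5 and 86 with a margin of 0.5, and 24 to 32 under the other settings, with 24 to 31 when 1 library was left out, and 20 of the 29 genes stayed in every such set. With a pseudocount of 0.1, 7 members differed between pNE and aNE (3 with a pseudocount of 1) and 10 between aNE_T and aNE (5). After quantile normalization 5 differed between pNE_T and pNE (8). A call by adjusted p alone gave 20 for aNE against hPSC, 20 for pNE against hPSC, 11 for pNE against aNE, 14 for pNE_T against aNE_T, 16 for pNE_H against aNE_H, 11 for aNE_T against aNE, 15 for pNE_T against pNE and 17 for pNE_H against pNE, with no limit on size. Leaving out 1 library gave 10 to 11 for aNE against hPSC, 10 to 13 for pNE against hPSC, 2 to 4 for pNE against aNE, 7 to 8 for pNE_T against aNE_T, 7 to 9 for pNE_H against aNE_H, 4 to 6 for aNE_T against aNE, 17 for aNE_H against aNE, 6 to 9 for pNE_T against pNE and 9 to 12 for pNE_H against pNE. It gave 3 to 5 and 8 to 11 for the responses to the forebrain and hindbrain medium. For the midbrain and isthmus list it gave 7 to 11 in the aNE origin and 5 in the pNE origin, and for the WNT target list 12 to 13 and 12 to 16. Where 1 library of a group was left out, the other was assumed to vary like the other groups. Same-numbered replicates share only a number: their deviations correlated at -0.0896 to 0.0762 over pairs of groups. With the number as a replicate block 10 members changed for aNE against hPSC (11 without), and the block changed no other count. Of 96 gene results followed through 1194 alternatives, 1154 kept their call, 40 lost it and none reversed. The 1154 include 96 under the call by adjusted p alone, which only drops the size limit and could lose no call. The reads behind a TPM value are unknown, so no counting error can be given for the low levels, and 2 libraries per group leave the spread of each gene resting on the pooled 9 degrees of freedom.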

Other observations

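A further 24 genes met the margins in both origins but differed by at least 1 between aNE_M and pNE_M, 18 of them higher in aNE_M and 6 in pNE_M. They were chosen on these values and carry no test. MSX1, a homeobox gene of the dorsal neural tube, had mean levels of 261 TPM in aNE_M and 656 in pNE_M, against 0.763 in aNE_T and 2.14 in pNE_T. ARHGAP24, a GTPase-activating protein, had 10.3 and 41.6 TPM in aNE_M and pNE_M. In the other direction MYO3B, an unconventional myosin, had 125 TPM in aNE_M and 5.85 in pNE_M, PAX3, another dorsal gene, 125 and 41.0, and GAD1, an enzyme of GABA synthesis, 106 and 31.5. With the margins asked of 1 origin alone, 177 genes passed in the aNE origin and 166 in the pNE origin.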
